A study of Homo sapiens with 24 samples.

Results

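Matrix metalloproteinases (MMPs), the ADAMTS proteases and the tissue inhibitors of metalloproteinases (TIMPs) were examined across 8 conditions of 3 triple-negative breast cancer (TNBC) cell lines. Members were all genes whose symbol is MMP followed by a number, ADAMTS followed by a number, or TIMP1 to TIMP4, without regard to their values. These were 47 genes, with 24 MMPs, 19 ADAMTS proteases and 4 TIMPs, among 66659 distinct symbols in the 4 expression tables. The tables listed 41 members for Hs578T, 31 for HCC70, 47 for the KIF20A depletion experiment and 40 for the overexpression experiment, and 27 members were in all 4 tables.

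MMPs and ADAMTS proteases are zinc-dependent enzymes that are made as inactive proforms and cut the proteins around cells. TIMPs bind the active site of the mature enzyme and hold it shut, and TIMP3, unlike the soluble TIMPs, stays bound to the matrix and also inhibits several ADAMTS proteases. In breast tumors, collagenases, gelatinases and the membrane-anchored MMP14 are known for opening basement membrane and stroma to invading cells, and much of this protease is made by stromal cells, which these cultures do not contain.

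RNA was sequenced from 24 libraries, 3 per condition. Hs578T and HCC70 cells carry no engineered change (labelled WT) and were sorted into breast cancer stem-like cells (BCSCs) and non-BCSCs, where the gate for BCSCs used CD24-CD44+ and ALDH+ cells and non-BCSCs lacked both markers. MDA-MB-231 cells carried either control sgRNA (sgCtrl) or KIF20A sgRNA #1 (KIF20A sg1, labelled a knockdown), and in a separate experiment either empty vector (EV) or a vector for KIF20A overexpression (OE). Each comparison asks whether BCSC identity or the level of KIF20A, a mitotic kinesin, goes with other levels of these proteases. The libraries were labelled biological triplicates, and the depletion rests on 1 guide. Each experiment has its own expression table, taken here as its batch, so a cell line and its table cannot be told apart.

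The libraries of Hs578T held 28189500 to 33715701 reads each, and those of HCC70 held 24681218 to 33559417. Libraries with an sgRNA had 41424338 to 51018667 reads, and those with a vector had 15971297 to 22182293. KIF20A was at 153, 173 and 156 normalized reads in sgCtrl and at 122, 145 and 91.1 with sg1, so that each sg1 library was below each control but the change did not pass the test (log2 fold change -0.45, adjusted p = 0.69 from limma). These values are RNA, and the protein, which the authors followed by immunoblot, was not measured here. With the overexpression vector KIF20A RNA was at 1348, 269 and 896 CPM against 101, 143 and 124 CPM in EV. The libraries labelled KIF20A OE stood apart from MDA-MB-231 in other ways. Their summed level of 6 mesenchymal markers was 622 to 1111 CPM against 6715 to 8635 CPM in EV, and all 6 markers were lower. The sum of IRS4, PAX2, NEFL, LIN28B and CDKN2A, genes at 0 in every EV library, was 1717 to 2257 CPM. IRS4 to CDKN2A were listed because earlier results showed them high in these libraries, so their sum is a description and not independent support. These libraries are therefore called by their label below, and an effect of KIF20A cannot be told apart from these other differences. The other lines carried the markers of their type. In Hs578T the mesenchymal sum was 10257 to 11198 TPM and the basal marker sum 1.40 to 2.16 TPM. In HCC70 the basal marker sum was 5314 to 5825 TPM and the mesenchymal sum 1214 to 1386 TPM. In the depletion experiment the mesenchymal sum was 5535 to 6719 normalized reads and the basal marker sum 17.7 to 23.7, with the basal marker KRT5 at 0.

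The promoters of MMP7, MMP14, TIMP1 and TIMP3 are shown because the levels and comparisons below return to these 4 members. They are the 250 bases before the gene's start in RefSeq on GRCh38.p14, printed on the gene's strand. Capitals mark a match, on either strand, to an AP-1 site (TGANTCA), a GC box (GGGCGG) or a TATA box (TATAAA). MMP7 lies at chr11:102530748-102530997 on the minus strand, MMP14 at chr14:22836335-22836584, TIMP1 at chrX:47582186-47582435 and TIMP3 at chr22:32801455-32801704 on the plus strand.
MMP7: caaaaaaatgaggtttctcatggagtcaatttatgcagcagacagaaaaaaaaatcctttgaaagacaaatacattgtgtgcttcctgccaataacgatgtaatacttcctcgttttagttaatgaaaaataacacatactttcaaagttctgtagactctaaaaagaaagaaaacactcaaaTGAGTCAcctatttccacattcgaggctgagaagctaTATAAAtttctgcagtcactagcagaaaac
MMP14: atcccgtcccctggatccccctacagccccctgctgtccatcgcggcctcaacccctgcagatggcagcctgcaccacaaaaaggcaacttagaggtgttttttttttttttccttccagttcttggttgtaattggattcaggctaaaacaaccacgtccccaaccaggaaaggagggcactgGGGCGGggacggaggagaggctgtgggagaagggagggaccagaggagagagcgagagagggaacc
TIMP1: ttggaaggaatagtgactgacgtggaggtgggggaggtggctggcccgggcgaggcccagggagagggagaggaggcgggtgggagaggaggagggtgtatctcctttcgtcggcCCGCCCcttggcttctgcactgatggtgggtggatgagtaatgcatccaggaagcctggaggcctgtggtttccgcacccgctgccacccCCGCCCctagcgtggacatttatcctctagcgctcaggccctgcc
TIMP3: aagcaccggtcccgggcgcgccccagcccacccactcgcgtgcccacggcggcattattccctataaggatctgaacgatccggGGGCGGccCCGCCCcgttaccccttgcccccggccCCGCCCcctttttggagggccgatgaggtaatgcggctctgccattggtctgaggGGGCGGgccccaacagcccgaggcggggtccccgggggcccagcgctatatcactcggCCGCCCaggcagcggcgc
The MMP7 promoter held an AP-1 match that starts at base -67 and a TATA box at -30, with no GC box. MMP14 had a single GC box at -66, TIMP1 had GC boxes at -135 and -45, and TIMP3 had 5 between -166 and -18. Promoters were found for 27 of the 47 members. An AP-1 match was in 4 of these (14.8%; ADAMTS12, MMP7, MMP10 and MMP20) and in 6.57% of all 35116 promoters. GC boxes were in 19 of the 27 (70.4%, against 42.6% of all promoters) and TATA boxes in 7 (25.9%, against 10.7%). A match is a description of letters and not a bound site, and other spellings of these motifs were not searched.

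Hs578T, HCC70 and MDA-MB-231 each used a different set of these genes. In Hs578T non-BCSCs, MMP2 (gelatinase A) made up 60.2% of the summed MMP level, at 348 ± 8.4 TPM (SD, n = 3), and TIMP3 made up 50.2% of the TIMP level, at 397 ± 9.1 TPM. HCC70 non-BCSCs had little of either, with MMP2 at 2.00 ± 0.19 TPM and TIMP3 at 1, 2 and 1 reads, and instead MMP7 (matrilysin) held 75.3% of the MMP level. In both MDA-MB-231 controls MMP14 (MT1-MMP, the membrane-anchored activator of pro-MMP2) led, with 90.0% of the MMP level in sgCtrl and 93.1% in EV, while MMP2, its substrate, was at 0.677 ± 0.20 normalized reads and 1.09 ± 1.8 CPM. These shares were set per kilobase of exon within a table, and no test was made across tables, which were normalized separately.

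**Figure D1:**
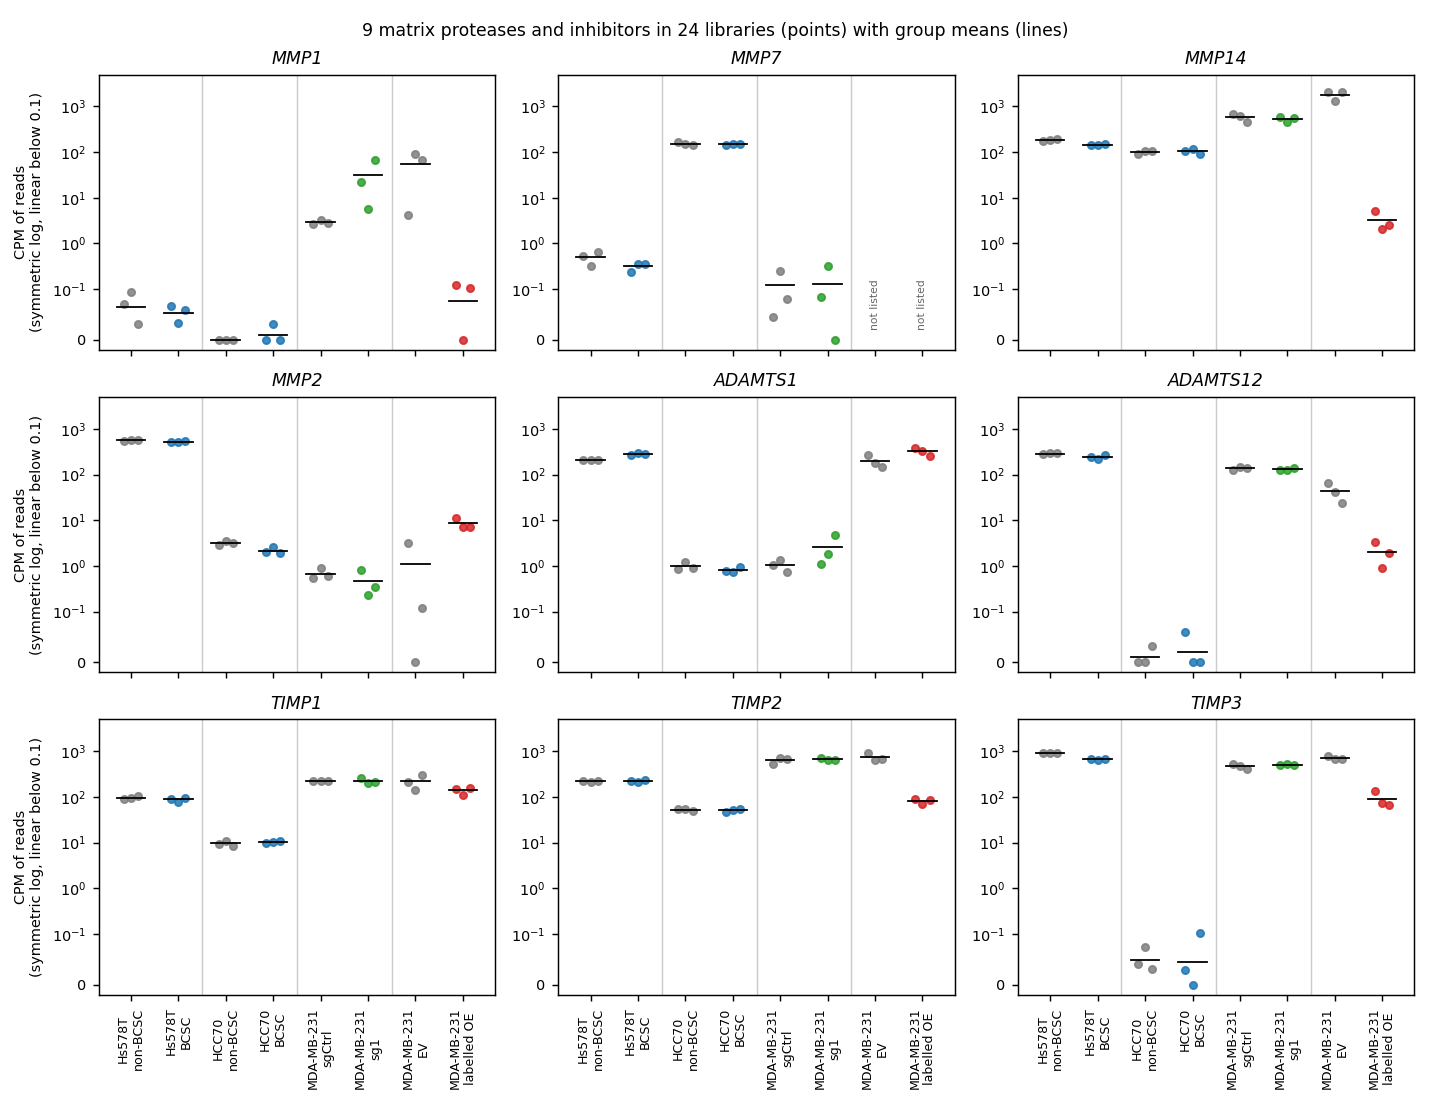
CPM of recovered reads of 9 members in the 24 libraries, on a symmetric log axis that is linear below 0.1, with points for libraries and lines for group means. MMP2 stands out in Hs578T (mean 559 CPM in non-BCSCs), MMP7, not listed in the EV and OE table, is high in HCC70, TIMP3 is near 0 there, and MMP14 is above 90 CPM in every library except those labelled KIF20A OE (2.03 to 5.07).

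The cluster at chr11:102520508-102955732 holds 9 MMPs (MMP7, MMP20, MMP27, MMP8, MMP10, MMP1, MMP3, MMP12 and MMP13). Of these, MMP20, MMP27, MMP8, MMP3 and MMP12 did not reach a mean of 1 in any comparison. MMP7 was the main MMP of HCC70, as given above. In MDA-MB-231, MMP1 was at means of 2.90, 32.3 and 53.5 CPM of recovered reads in sgCtrl, sg1 and EV. MMP1, interstitial collagenase, had 5 and 6 reads over 3 libraries in the Hs578T fractions and 0 and 1 in HCC70, where a count of 0 over the 3 non-BCSC libraries allows up to 0.0361 CPM. MMP13, collagenase 3, was expressed above the minimum only in HCC70, at 0.830 to 1.06 TPM in non-BCSCs and 0.860 to 1.53 TPM in BCSCs. MMP9 (gelatinase B) did not reach a mean of 1 in any table, with 0 to 0.0325 TPM in Hs578T, 0.156 to 0.343 TPM in HCC70 and 0.161 to 1.36 normalized reads in MDA-MB-231. Of the 47 members, 11 were tested in no comparison for lack of expression (ADAMTS8, MMP3, MMP8, MMP9, MMP12, MMP20, MMP21, MMP23A, MMP23B, MMP26 and MMP27), and 5 were tested in all 4 comparisons (MMP11, MMP14, MMP15, TIMP1 and TIMP2).

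Each gene whose mean in a comparison reached 1 was tested by limma on log2(value + 1), with Benjamini-Hochberg adjustment over all genes tested. Log2 fold changes are on that scale, with their standard error (SE), and understate changes of low genes. An adjusted p under 0.05 is called. In bulk RNA, fewer cells of a type and less RNA per cell cannot be told apart.

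In Hs578T, BCSCs had less of the matrix-bound inhibitor TIMP3, less MMP14 and less ADAMTS14, and more ADAMTS1 and ADAMTS18. Of the 21 members tested, 6 were called, with 2 higher (ADAMTS1 and ADAMTS18) and 4 lower (TIMP3, MMP14, ADAMTS14 and ADAMTS5). Over all 13324 genes tested, 7.15% were called, 2.9% higher and 4.26% lower. The median log2 fold change was -0.00 over the members and -0.01 over all genes. The groups did not overlap for 11 of the 21 members, against 29% of all genes.

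TIMP3 was at 404, 401 and 387 TPM in non-BCSCs and at 289, 275 and 298 TPM in BCSCs. Each BCSC library lay well below each non-BCSC library (log2 fold change -0.47, SE 0.05, adjusted p = 0.0019). The soluble inhibitors did not show this. TIMP1 was at 236, 249 and 265 TPM in non-BCSCs and 237, 201 and 254 TPM in BCSCs, groups that overlap (-0.12, adjusted p = 0.46). TIMP2, which besides inhibiting MMPs links MMP14 to pro-MMP2, was at 147, 144 and 142 TPM against 142, 138 and 152 TPM (adjusted p = 0.99), also with overlap. TIMP4 had 0 or 1 read per library.

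MMP14 was at 122, 126 and 129 TPM in non-BCSCs and at 97.3, 93.6 and 101 TPM in BCSCs. All 3 BCSC libraries were below all 3 non-BCSC libraries (log2 fold change -0.36, SE 0.05, adjusted p = 0.0050). MMP2, which MMP14 activates, was at 338, 353 and 353 TPM against 318, 306 and 338 TPM. Its BCSC values were the lower ones, the highest of them just under the lowest non-BCSC value, and it did not pass the test (-0.12, adjusted p = 0.20). The other membrane-type MMPs tested, MMP15 and MMP16, had overlapping groups, and MMP16 was at 83.8 to 90.9 TPM over all 6 libraries. MMP19, which cleaves basement membrane proteins, was at 4.91 to 4.96 TPM in non-BCSCs and 2.71 to 4.29 TPM in BCSCs and missed the threshold (-0.41, adjusted p = 0.095).

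Collagenase and stromelysin reads were few but uneven. MMP13 had 8, 10 and 9 reads in non-BCSCs and 2, 2 and 0 in BCSCs, and MMP3 (stromelysin 1) had 17, 30 and 23 against 11, 7 and 10. The BCSC libraries held fewer reads of both genes, at levels too low to be tested. MMP11, stromelysin 3, was at 3.98 to 4.69 TPM with overlapping groups.

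ADAMTS1, which cleaves versican and aggrecan, was at 108, 108 and 107 TPM in non-BCSCs and at 137, 145 and 143 TPM in BCSCs. The BCSC values were all higher and the non-BCSC values nearly level (log2 fold change 0.39, SE 0.04, adjusted p = 0.0021). ADAMTS5, another aggrecan-cleaving enzyme and the neighbor of ADAMTS1 on chromosome 21, moved the other way, from 21.1, 20.2 and 18.8 TPM to 16.7, 16.4 and 15.7 TPM. Its groups did not overlap (-0.28, SE 0.06, adjusted p = 0.026), but the call was lost with no minimum on expression (adjusted p = 0.051) and without non-BCSC replicate 1, non-BCSC replicate 2, BCSC replicate 1 or BCSC replicate 3 (adjusted p = 0.084, 0.12, 0.080 and 0.069).

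The procollagen N-propeptidases, which trim fibrillar collagen before it assembles, did not move together. ADAMTS14 was at 37.5, 40.0 and 43.9 TPM in non-BCSCs and at 26.6, 26.7 and 26.4 TPM in BCSCs, lower in all 3 (-0.59, SE 0.06, adjusted p = 0.0021). ADAMTS2, the main enzyme of this class, was at 42.6, 44.7 and 46.3 TPM against 49.3, 54.6 and 50.4 TPM, with every BCSC library higher, and missed the threshold (0.20, adjusted p = 0.073). ADAMTS3 was at 11.6 to 12.7 TPM with overlap. Summed over the class, non-BCSCs had 96.9 ± 4.9 TPM and BCSCs had 90.3 ± 2.5 TPM (SD, n = 3).

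ADAMTS18 was at 3.68, 3.46 and 3.53 TPM in non-BCSCs and at 5.80, 5.55 and 6.26 TPM in BCSCs. These values were low but apart (0.59, SE 0.07, adjusted p = 0.0033). ADAMTS12, a protease of cartilage oligomeric matrix protein (COMP) and the most abundant ADAMTS in Hs578T non-BCSCs, was at 137, 143 and 139 TPM against 116, 104 and 127 TPM. All BCSC values were lower, short of the threshold (-0.28, adjusted p = 0.059).

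**Figure D2:**
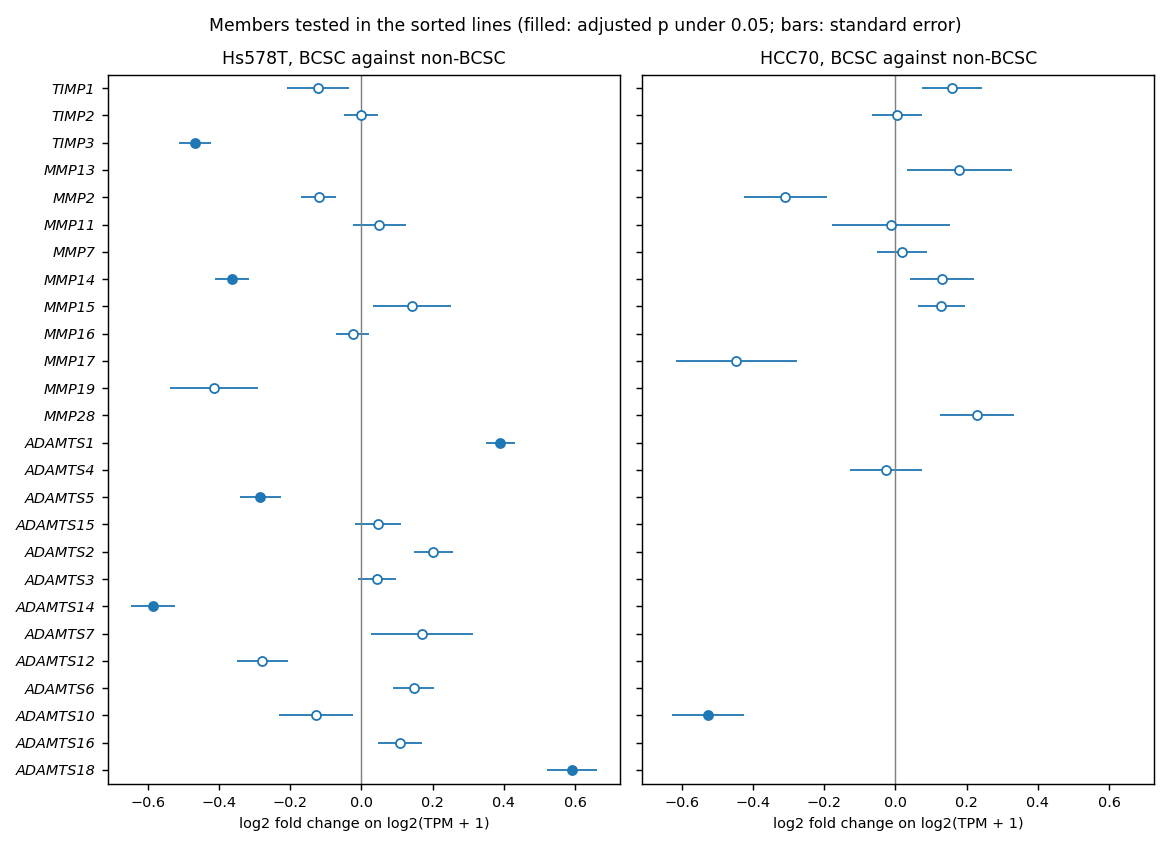
Log2 fold change of BCSCs against non-BCSCs with its standard error, for each member tested in Hs578T or HCC70. Filled points passed an adjusted p under 0.05 by limma. TIMP3 (-0.47), ADAMTS14 (-0.59), MMP14 (-0.36) and ADAMTS5 (-0.28) lie to the left in Hs578T, ADAMTS1 (0.39) and ADAMTS18 (0.59) to the right, and ADAMTS10 (-0.53) is the filled point of HCC70.

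In HCC70, 1 of the 12 members tested was called, and it was lower, against 2.83% of 13218 genes called and 0.552% called lower. ADAMTS10, which binds fibrillin microfibrils, was at 29.4, 22.3 and 24.2 TPM in non-BCSCs and at 17.9, 17.6 and 16.0 TPM in BCSCs. All BCSC values were lower (-0.53, SE 0.10, adjusted p = 0.043), but the call was lost with no minimum on expression (adjusted p = 0.088), with a block on the replicate number (0.069), and without any 1 library except non-BCSC replicate 1 (0.052 to 0.14). The groups did not overlap for 4 members, against 30.9% of all genes.

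MMP7, which cleaves a wide range of matrix and surface proteins, was at 360, 323 and 309 TPM in HCC70 non-BCSCs and at 327, 327 and 349 TPM in BCSCs. The groups overlap and the means nearly coincide (0.02, adjusted p = 0.90). MMP14 was at 62.7, 71.6 and 72.1 TPM against 77.6, 82.2 and 67.0 TPM, again with overlap (0.13, adjusted p = 0.41). MMP2 was at 1.78, 2.16 and 2.05 TPM against 1.35, 1.65 and 1.25 TPM, lower in each BCSC library without passing the test (-0.31, adjusted p = 0.16). Neither soluble inhibitor separated the fractions. TIMP1 was at 25.3, 28.6 and 23.1 TPM against 27.4, 28.5 and 30.2 TPM (adjusted p = 0.29), and TIMP2 at 36.1, 36.2 and 33.2 TPM against 32.9, 35.0 and 38.0 TPM (adjusted p = 0.97).

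The difference between the lines was tested as an interaction of fraction and cell line over the 12 sorted libraries. Of 18 members tested, 4 passed, and 8.1% of 13705 genes did. As log2 fold change in Hs578T minus that in HCC70, it was -0.47 for TIMP3 (SE 0.06, adjusted p = 0.0024), 0.46 for ADAMTS1 (SE 0.08, adjusted p = 0.0074), -0.52 for ADAMTS14 (SE 0.10, adjusted p = 0.010) and -0.50 for MMP14 (SE 0.11, adjusted p = 0.020). Of these, MMP14 alone was well expressed in both lines. In HCC70, ADAMTS1 was at 0.390 to 0.632 TPM, ADAMTS14 at 0.129 to 0.288 TPM and TIMP3 at 0 to 3 reads per library. These 3 genes reached the minimum through Hs578T alone and their interaction values restate the Hs578T change, so no difference between the lines is read from them, and the count of 4 is not read against the share of all genes. With a pseudocount of 0.1 the calls of TIMP3 (adjusted p = 0.15), ADAMTS1 (0.0501) and ADAMTS14 (0.38) were lost. The call of MMP14 was lost under rescaling by the median of ratios (adjusted p = 0.051), with the replicate block (0.057), without Hs578T non-BCSC replicate 2 (0.053) and without HCC70 BCSC replicate 1 (0.055).

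Genes that act around these enzymes were read from 5 lists, beside the 7.15% of all genes called in Hs578T and the 2.83% called in HCC70. The lists were chosen with earlier results of these data known, so an excess over these shares is not read from their counts. In Hs578T, 3 of 7 tested genes of plasminogen activation were called. PLAT, tissue plasminogen activator, was higher in BCSCs (0.70, adjusted p = 0.00016), as was the protease inhibitor SERPINE2 (0.28, adjusted p = 0.012), and S100A10, a plasminogen-binding surface protein, was lower (-0.28, adjusted p = 0.024). Of the list for activation and surface control of MMPs, 2 of 7 were called, both lower, namely LRP1, the receptor that clears many proteases (-0.38, adjusted p = 0.020), and CD63, a TIMP1-binding tetraspanin (-0.27, adjusted p = 0.042). The list of AP-1 and ETS factors, which bind many MMP promoters, also holds RUNX2, a member of neither family, and had 5 of 12 called. ETV4 was higher (0.51, adjusted p = 0.0056) and 4 were lower, among them RUNX2 (-0.57, adjusted p = 0.0016) and FOSB (-0.59, adjusted p = 0.011). ADAM sheddases (0 of 6) and ADAMTS-like proteins with proteoglycan substrates (0 of 4) had none called. No gene of the 5 lists was called in HCC70, where the low share over all genes leaves few calls to be found in lists of this size.

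KIF20A sg1 gave no call among members. Limma passed 0 of 20 members and 0% of 12852 genes, and on recovered reads edgeR and DESeq2 also called 0 members (0 and 16 of all genes). An unadjusted p under 0.05 was found for 2 of the 20 members (MMP1 and ADAMTS1) and for 7% of all genes. The groups did not overlap for 1 member, which was higher with sg1, against 13% of all genes in either direction and 5.73% in that one.

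That member was MMP1. It was at 2.59, 3.24 and 2.87 normalized reads in sgCtrl and at 22.7, 5.97 and 67.5 with sg1, from 118, 158 and 143 reads against 1086, 296 and 2829. Every sg1 library was above every control, yet the sg1 libraries differed from each other more than the lowest of them did from the controls (log2 fold change 2.53, SE 0.59, adjusted p = 0.69). Without sg1 replicate 2, its lowest library, the value was 3.37 and was called (adjusted p = 0.0057). In the exact permutation test of the 20 regroupings of 3 against 3 libraries its two-sided p was 0.1, the smallest that this design allows. MMP1 shares 223 exon bases with WTAPP1 on the opposite strand. MMP3, next to it in the cluster, had 6, 0 and 6 reads in sgCtrl and 6, 0 and 54 with sg1, and the library with 54 is the one with the most MMP1.

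ADAMTS1 was at 1.01, 1.35 and 0.722 normalized reads in sgCtrl and at 1.09, 1.92 and 4.67 with sg1, groups that overlap (0.69, adjusted p = 0.69). The 4 other members with the smallest p had overlapping groups as well. MMP16 was at 10.9, 4.53 and 8.16 against 10.4, 12.0 and 10.5 normalized reads. MMP15 (MT2-MMP) was at 32.5, 41.5 and 32.5 against 30.4, 32.7 and 23.7. ADAMTS14 was at 9.61, 10.1 and 2.17 against 13.4, 9.76 and 8.71, where sgCtrl replicate 3 is far below its group. ADAMTS15, an aggrecan-cleaving enzyme, was at 202, 236 and 169 against 134, 258 and 101.

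The abundant members of MDA-MB-231 had overlapping groups. MMP14 was at 668, 639 and 471 normalized reads in sgCtrl and 595, 476 and 558 with sg1 (-0.12, adjusted p = 0.88). TIMP1 was at 219, 231 and 222 against 262, 207 and 212 (0.01, adjusted p = 0.99). TIMP2 was at 525, 732 and 700 against 699, 677 and 634 (0.05, adjusted p = 0.95), and TIMP3 at 515, 492 and 404 against 498, 543 and 492 (0.13, adjusted p = 0.84). The SEs of these 4 differences were 0.13 to 0.16. Limma called 0 of 12852 genes here, so changes of that size, and changes well above it, could be missed. None of the genes tested in the 5 lists was called.

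**Figure D3:**
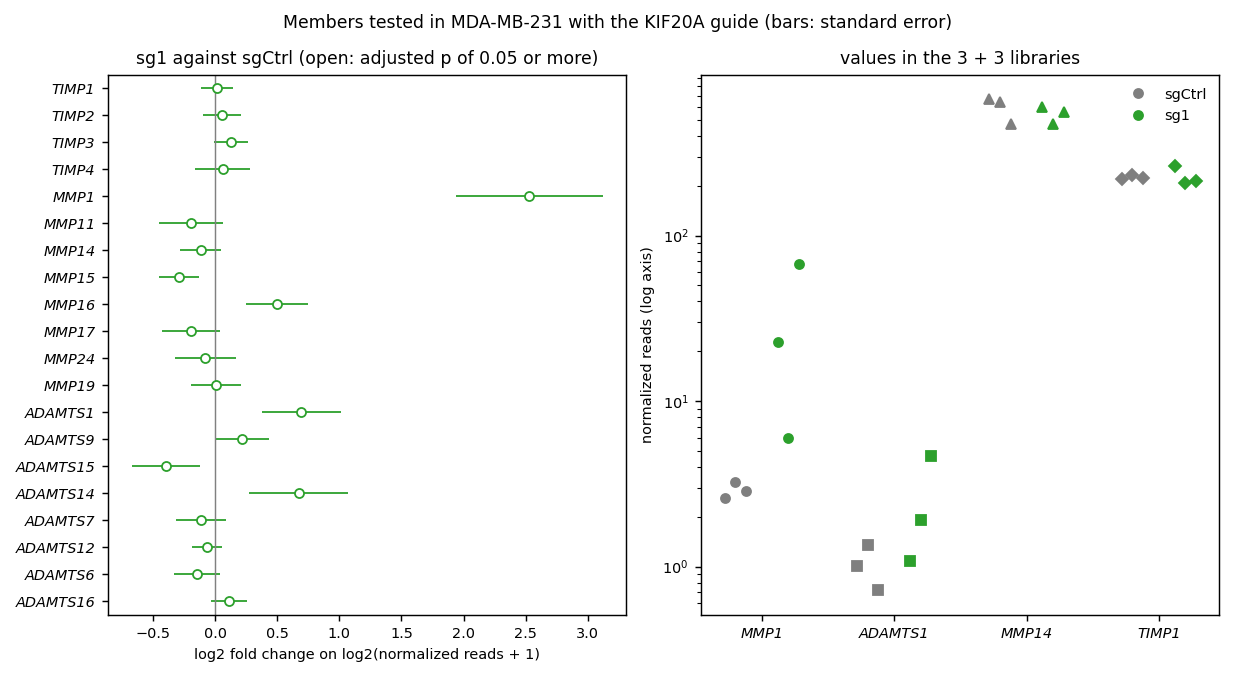
Left, log2 fold change of KIF20A sg1 against sgCtrl with its standard error for the 20 members tested, all open because none passed limma. Right, normalized reads of 4 members in each library on a log axis, where the sg1 libraries have 5.97 to 67.5 for MMP1 against 2.59 to 3.24 in sgCtrl and the groups of ADAMTS1, MMP14 and TIMP1 overlap.

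Against EV, the libraries labelled KIF20A OE had almost no MMP14 or MMP1, held less TIMP2 and TIMP3, and carried ADAMTS proteases that EV lacked. Of 32 members tested, 27 were called, 15 higher and 12 lower, but so were 69.7% of 15265 genes, 46.2% higher and 23.4% lower. Groups that do not overlap were found for 26 of the 32 members and for 74.1% of all genes. The median log2 fold change was 0.44 over the members and 0.37 over all genes, and rescaling by the median of ratios moved these to 0.20 and 0.04. The median over the members turned to -0.18 with quantile normalization and to -0.24 with a minimum mean of 5, which leaves 21 members, so no direction is read from it. Under the median of ratios the direction of the called members was 14 higher and 13 lower, and 51.2% in place of 66.3% of all calls were higher.

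The inhibitors were lower or level. TIMP2 was at 921, 638 and 690 CPM in EV and at 90.4, 71.0 and 88.0 CPM in the labelled OE libraries (log2 fold change -3.15, SE 0.17, adjusted p = 1.3e-06). TIMP3 was at 775, 682 and 688 CPM against 137, 74.9 and 65.6 CPM (-3.01, SE 0.25, adjusted p = 1.6e-05). For both, the labelled OE values were far below all EV values. Of its 6209 exon bases, TIMP2 shares 224 with genes on the same strand and 367 with genes on the opposite strand.

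TIMP1 was at 217, 144 and 298 CPM against 152, 111 and 159 CPM. These groups overlap and the value did not pass (-0.60, adjusted p = 0.069), whereas it was called under the median of ratios (-0.96, adjusted p = 0.011), with the replicate block (0.0082), by edgeR (0.011), by DESeq2 (0.00066) and without EV replicate 2 (0.0091). TIMP4 was low, at 1.14, 3.29 and 1.47 CPM against 0.501, 1.17 and 0.107 CPM. It was called (-0.88, adjusted p = 0.042) although its groups overlap, and not without EV replicate 2, EV replicate 3, labelled OE replicate 1 or labelled OE replicate 3 (adjusted p = 0.054 to 0.14).

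MMP14 was at 2036, 1322 and 2037 CPM in EV and at 5.07, 2.03 and 2.57 CPM in the labelled OE libraries, the member with the lowest log2 fold change (-8.77, SE 0.28, adjusted p = 1.2e-07). MMP1 was at 4.09, 89.6 and 66.9 CPM against 0.125, 0 and 0.107 CPM, with 4 reads in all 3 labelled OE libraries together (-4.87, SE 0.94, adjusted p = 0.0019). EV replicate 1 had far less MMP1 than the other EV libraries, yet more than any labelled OE library. The sum over all MMPs was 418 ± 80 in EV and 16.4 ± 0.73 in the labelled OE libraries, in CPM per kilobase of exon (SD, n = 3).

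The other membrane-type MMPs mostly went the other way. MMP16 was at 1.38, 1.74 and 4.76 CPM against 18.2, 8.97 and 14.5 CPM (2.10, adjusted p = 0.0013), and MMP15 at 8.09, 3.29 and 5.47 against 12.0, 15.1 and 16.4 CPM (1.28, adjusted p = 0.0040). The GPI-anchored members MMP17 and MMP25 were at 0 to 0.238 and 0.387 to 1.00 CPM in EV and at 2.16 to 4.28 and 6.91 to 14.4 CPM in the labelled OE libraries. Both rose (1.90, adjusted p = 0.00014 and 2.75, adjusted p = 6.1e-05), although MMP25 shares 1454 of its 4745 exon bases with MMP25-AS1. MMP24 was lower, at 3.24, 2.75 and 3.29 CPM against 0.939, 1.17 and 2.03 CPM (-0.81, adjusted p = 0.011), and shares 968 exon bases with other genes.

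MMP2 was at 3.14, 0 and 0.118 CPM in EV and at 11.3, 7.08 and 7.12 CPM in the labelled OE libraries. All labelled OE values were above the EV values (2.48, SE 0.51, adjusted p = 0.0027), while edgeR and DESeq2 gave an adjusted p of 0.091 and 0.21. MMP19 was at 15.4, 14.2 and 16.0 CPM against 8.14, 9.69 and 7.60 CPM (-0.78, adjusted p = 0.0038). It shares 821 of its 4672 exon bases with TMEM198B on the opposite strand. The stromelysins MMP10 and MMP11 were not called.

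Among the proteoglycan-cleaving ADAMTS, 3 of 6 rose and 1 fell. ADAMTS20 had 2 reads in EV against 265 (137-fold, 95% counting interval 37.5 to 1136). ADAMTS4 was at 0.143, 0 and 0.353 CPM against 3.26, 2.57 and 3.53 CPM (1.83, adjusted p = 7.4e-05). The abundant ADAMTS1 was at 273, 181 and 148 CPM against 390, 329 and 255 CPM, with overlap (0.72, adjusted p = 0.027), and lost its call under the median of ratios (0.35, adjusted p = 0.26), by edgeR (0.29), by DESeq2 (0.29) and without EV replicate 2, EV replicate 3, labelled OE replicate 1 or labelled OE replicate 2 (0.077 to 0.11). ADAMTS15 fell, from 35.6, 19.6 and 19.8 CPM to 12.3, 8.75 and 11.6 CPM (-1.09, adjusted p = 0.0057).

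The procollagen N-propeptidases again split. ADAMTS2 was at 0.476, 0 and 0.118 CPM against 18.7, 13.3 and 19.4 CPM (3.92, adjusted p = 2.7e-06) and ADAMTS3 at 0.286, 1.69 and 4.47 against 14.2, 17.8 and 17.3 CPM (2.71, adjusted p = 0.00094). ADAMTS14 was at 7.66, 2.22 and 1.23 CPM against 0.188, 0.631 and 0.214 CPM (-1.58, adjusted p = 0.014), and was not called without labelled OE replicate 1 (0.053). The COMP-cleaving enzymes split as well. ADAMTS12 was at 65.5, 41.6 and 23.3 CPM against 3.26, 0.902 and 1.87 CPM (-3.84, adjusted p = 6.7e-05), and ADAMTS7, which has near-identical pseudogene copies, at 0.667, 0.967 and 7.82 against 30.2, 14.7 and 30.2 CPM (3.02, adjusted p = 0.0023).

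ADAMTS13, the protease of von Willebrand factor, was at 0.0952, 0.242 and 0.294 CPM in EV and at 47.3, 23.5 and 39.3 CPM in the labelled OE libraries, the highest log2 fold change of a member (4.91, SE 0.27, adjusted p = 1.7e-06). ADAMTS10 had 0 reads in all EV libraries and 479 in the labelled OE libraries, at least 165-fold higher than a floor of 3 reads over the group. ADAMTS19 had 1 read against 386 (399-fold, 95% counting interval 71.1 to 15788), and ADAMTS17 was at 1.71, 1.35 and 3.65 CPM against 10.4, 10.3 and 10.8 CPM (1.89, adjusted p = 0.00035). Lower were ADAMTS6, from 46.3, 40.4 and 34.0 CPM to 3.13, 2.93 and 4.12 CPM (-3.23, adjusted p = 2.7e-06), and ADAMTS16, from 53.3, 36.3 and 23.3 CPM to 2.75, 0.225 and 0.910 CPM (-4.15, adjusted p = 6.2e-05). None of the groups of these genes overlap.

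**Figure D4:**
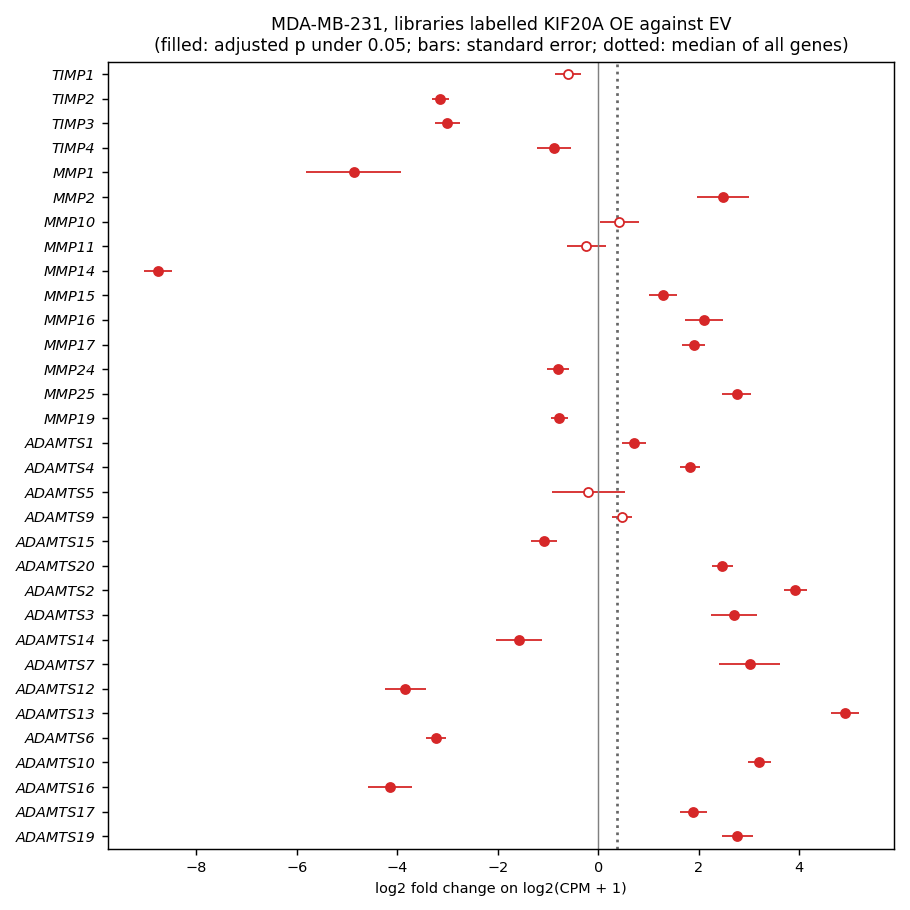
Log2 fold change of the libraries labelled KIF20A OE against EV with its standard error, for the 32 members tested. Filled points passed an adjusted p under 0.05 by limma and the dotted line is the median of all genes (0.37). MMP14 (-8.77) and MMP1 (-4.87) lie farthest left and ADAMTS13 (4.91) farthest right.

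For the same 5 lists the background was again 69.7% of all genes called, 46.2% higher and 23.4% lower, so the counts called are not read as particular to the lists. All 6 called genes of plasminogen activation, of 7 tested, were lower, with PLAU (urokinase) at -8.92 and its receptor PLAUR at -4.09 on the log2 scale. All 6 ADAM sheddases tested were lower (ADAM8 -6.54, ADAM19 -3.85). The list of AP-1 and ETS factors with RUNX2 had 8 of 12 lower and 2 higher, with FOSL1 at -6.92, ETS1 at -6.09 and ETV4 at -5.71. The proprotein convertases PCSK6 (4.45) and PCSK5 (2.73) were higher within a list that split 3 and 3 of 10. Of ADAMTS-like proteins and substrates, 5 of 6 were called, with VCAN (versican) higher at 5.97 and ADAMTSL1 lower at -5.94. The mesenchymal marker sum, given above, was lower in the same libraries, and its part in these results was not tested.

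**Figure D5:**
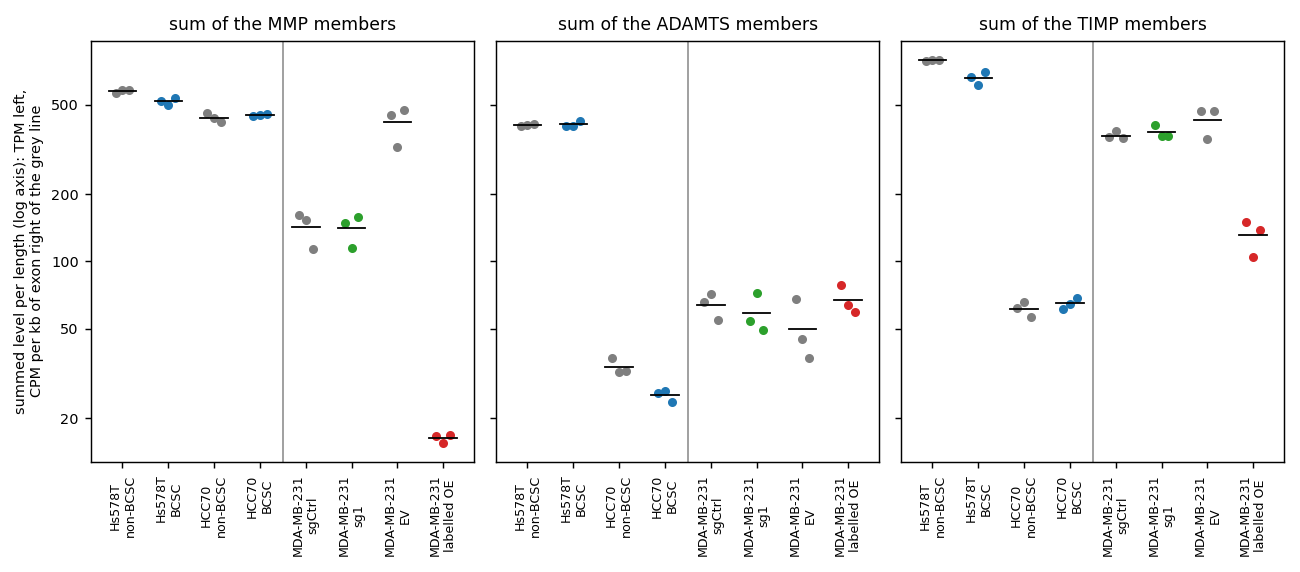
Summed level of MMPs, ADAMTS proteases and TIMPs per library in the 8 conditions, on a log axis. Units are TPM for the sorted lines and CPM per kilobase of exon for MDA-MB-231, each point is 1 library, and tables were normalized separately. The MMP sum of the labelled OE libraries (15.5 to 16.8) lies far below that of EV (326 to 475), with smaller steps elsewhere.

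Inhibitor RNA was set against MMP RNA by these sums, which do not measure protein, activation or activity and leave out the ADAMTS proteases. The summed TIMP level divided by the summed MMP level was 1.37 ± 0.014 in Hs578T non-BCSCs and 1.27 ± 0.039 in BCSCs (SD, n = 3), and each BCSC value was below each non-BCSC value. In HCC70 it was 0.140 ± 0.0089 and 0.144 ± 0.0071, and in the depletion experiment 2.61 ± 0.47 in sgCtrl and 2.72 ± 0.44 with sg1, with overlap in both. It was 1.03 ± 0.050 in EV and 7.99 ± 1.1 in the labelled OE libraries, where TIMP1 held 74.1% of the remaining TIMP level. In EV, MMP14 alone held 93.1% of the MMP level, so this ratio largely follows MMP14 RNA.

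The 6 members called in Hs578T can be set beside the labelled OE comparison, which shares no library with it. TIMP3 (-0.47 and -3.01), MMP14 (-0.36 and -8.77), ADAMTS14 (-0.59 and -1.58) and ADAMTS1 (0.39 and 0.72) had the same sign in both, ADAMTS5 (-0.28 and -0.20) was not called in the second and ADAMTS18 was not tested there. In the second comparison 69.7% of all genes were called, and the calls of ADAMTS1 and ADAMTS14 were lost under some alternatives. The share of all genes with the same sign was not taken, so these signs are not read as a likeness. With sg1 the values were 0.13 for TIMP3, -0.12 for MMP14, 0.67 for ADAMTS14 and 0.69 for ADAMTS1, none of them called.

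Across the 8 condition means, the members most like MMP1 of 25 compared were TIMP1 (Spearman's rho 0.93), TIMP2 (0.88) and MMP24 (0.88). Those most like MMP14 were TIMP2 (0.86), ADAMTS15 (0.81) and MMP1 (0.74), and those most like TIMP1 were MMP24 (0.95), MMP1 (0.93) and ADAMTS15 (0.86). MMP1 was at 0 to 0.0774 CPM of recovered reads in Hs578T, HCC70 and the labelled OE libraries, so its ranks there rest on few reads. The 8 points come from 4 separately normalized tables of 3 cell lines and are a description. The EV and sgCtrl cultures, both controls of MDA-MB-231, also lay apart, with ADAMTS1 at 201 and 1.03 CPM of recovered reads, MMP14 at 1798 and 594, and ADAMTS15 at 25.0 and 202. These tables are different experiments, so no test was made between them.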

How the data were processed

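Poly-A RNA of 24 libraries was sequenced as paired-end reads on stranded libraries and aligned to GRCh38 by the authors. The submitters' processing notes name HISAT2 2.0.5 and featureCounts 1.5.0-p3, and the strand setting of the counting is not given in the sources used here. For the sorted lines the deposited values are TPM, which the authors scaled per transcript length to a common total. For the sgRNA libraries the authors deposited a signal, reads divided by 1 factor per library, called normalized reads here and tested as the authors scaled it, while scaling each library to a common total, which the planned test had named, was run as an alternative. The vector libraries came as CPM, scaled by the authors with no length term. No table of raw counts was used here.

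The 47 members, the 5 related lists and the marker lists were chosen with earlier results of these data known. Groups and replicate numbers came from the sample labels. Genes with a mean of at least 1 were tested by limma 3.58.1 in R 4.3.3 on log2(value + 1) with a trended prior, two-sided, within each comparison, and over the 12 sorted libraries for the interaction. Values are given for MMP1, MMP2, MMP9, MMP14 and TIMP1 to TIMP3, for every other member called and, where 0 were called, for the 6 with the smallest p. Whole reads were recovered from steps between values and from ratios within a gene (tolerance 0.005). They were whole for 100% of values in both MDA-MB-231 tables, and some genes of the TPM tables may have reads too low by a common divisor. On these reads edgeR 4.0.16 called 1646, 715, 0 and 9931 genes in Hs578T, HCC70, depletion and overexpression, and DESeq2 1.42.0 called 16 and 10185 in the last 2. Intervals and floors of 3 reads cover counting error only. Scripts were tested on simulated data. Other alternatives were a pseudocount of 0.1, no minimum or a minimum of 5, the median of ratios, quantile normalization, a replicate block and leaving out each library. Levels between genes were set per kilobase of exon in GENCODE 44, which may differ from the authors' annotation.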

Additional observations from a re-analysis of the deposited data

Results flagged for a closer look

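The interaction of the BCSC fraction with the cell line (Hs578T or HCC70) passed the test of limma for 4 members. Given as the log2 fold change in Hs578T minus that in HCC70, the difference was -0.47 for TIMP3, 0.46 for ADAMTS1, -0.52 for ADAMTS14 and -0.50 for MMP14. TIMP3, ADAMTS1 and ADAMTS14 were at most 0.632 TPM in every HCC70 library, so their values restate the change in Hs578T and no difference between the lines is read from them. Their calls were lost with a pseudocount of 0.1 (adjusted p = 0.15, 0.0501 and 0.38). MMP14 alone of the 4 was well expressed in both lines, and its call was lost with the median of ratios (adjusted p = 0.051), with the replicate block (0.057), without Hs578T non-BCSC replicate 2 (0.053) and without HCC70 BCSC replicate 1 (0.055). Cell line and batch cannot be told apart in this test.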

How the results depend on the processing

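The count of members called in HCC70 (1) was 0 with no minimum and 0 with the replicate block, and 0 to 1 with each library left out. In the depletion experiment it was 0 to 1 with each library left out, the 1 being MMP1 without sg1 replicate 2, and 0 members and 0 genes were called with each library scaled to a common total, a setting added after the data were seen. In the interaction it was 2 with a pseudocount of 0.1 and otherwise 3 to 5. In Hs578T it was 6, with 5 to 9 under the alternatives, the 9 from edgeR. In the overexpression experiment it was 27, with 18 to 30, where 18 of 21 members were called with a minimum mean of 5. No alternative moved either count by more than 1.5 times. Of the values of TIMP2, near 0 in both sorted lines, the sign changed in Hs578T with the median of ratios (0.025) and edgeR (0.020), and in HCC70 with the median of ratios (-0.022), quantile normalization (-0.027) and edgeR (-0.016). Leaving out libraries moved it from -0.041 to 0.029 in Hs578T, from -0.048 to 0.054 in HCC70 and from -0.096 to 0.14 in the depletion experiment. TIMP1 in the depletion experiment was at -0.0073 with quantile normalization and from -0.093 to 0.076 with libraries left out. The causes were not tested. Over 56 results for single members, alternatives other than leaving out a library kept sign and call in 393 cases, lost a call in 13, gained one in 4 and changed sign in 6.

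Of 12 same-numbered pairs, 1 had a correlation above 0.1, which does not settle whether the replicate numbers pair the samples. With the replicate block, 6, 0, 0 and 28 members were called in the 4 comparisons and 3 in the interaction. In the overexpression experiment 6 of 6 libraries correlated best with their own number, though weakly (0.014 to 0.058), in the others 0 to 2 of 6. Calls over all genes with the block fell from 374 to 128 in HCC70 and from 1110 to 408 in the interaction. Counts over all genes also moved by more than 1.5 times with edgeR (1646 against 953 in Hs578T and 715 against 374 in HCC70) and in HCC70 with no minimum (178), the median of ratios (232) and quantile normalization (235). In Hs578T 40.5% of calls were higher, and 52% under the median of ratios; in the interaction 22.3% and 45.4%. With 1 library left out, the count over all genes fell by more than 1.5 times in Hs578T without non-BCSC replicate 1 (487), non-BCSC replicate 2 (342) or BCSC replicate 1 (394), and in HCC70 without any of the 6 (32 to 247, the lowest without BCSC replicate 1). In the interaction it was 440 to 716 without any 1 Hs578T library except BCSC replicate 3 or without HCC70 non-BCSC replicate 1, BCSC replicate 1 or BCSC replicate 3. The shares over all genes set beside the members rest on these counts. Without sgCtrl replicate 3, 144 genes and 0 members were called in the depletion experiment. For a fold, a group with 0 reads gives only a bound, and a group with 1 to 3 reads gives a ratio with a counting interval.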
